A study of Mus musculus with 40 samples.

Results

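Goblet cells were followed through 7 genes, Muc2, Tff3, Clca1, Fcgbp, Agr2, Spdef and Zg16, chosen by name as known goblet cell genes and read from the table of log2 TPM (a length-scaled measure of transcript abundance), in which they are 7 of 15958 genes. All 7 passed the filter on low values, a mean log2 TPM of 1 or more, and entered every comparison. The libraries came from whole-tissue RNA of duodenum and of ileum distal to the anastomosis (post-anastomotic ileum) in male wild-type C57BL/6 mice, with 3 sham mice given vehicle, 4 mice with small bowel resection (SBR) given vehicle and 4 SBR mice given WUSTL0717 for each region. Surgery was done at 8 weeks of age, treatment started 3 weeks later, and vehicle or WUSTL0717 at 30 mg/kg was given by mouth each day for 7 weeks. WUSTL0717 is an amide analog of GW3965 that activates the liver X receptors (LXR) mainly in the gut. Sham mice had the bowel cut and rejoined at the same place, and the labels give the extent of the resection as 50 to 60% of the small bowel, while the methods of the study give a larger proximal part. No sham mice given WUSTL0717 were used here, so an effect of the compound could be read only after SBR, and it is not known whether equally numbered duodenal and ileal libraries came from the same mouse.

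Goblet cells are the mucus-secreting cells of the gut epithelium and become more frequent from the duodenum towards the ileum. Muc2 is the gel-forming mucin that makes up the mesh of intestinal mucus, and Fcgbp, Clca1 and Zg16 are proteins secreted into that mucus: Fcgbp is a large mucin-associated protein, Clca1 a metalloprotease that processes the mucus, and Zg16 a lectin that binds Gram-positive bacteria. Tff3 is a small trefoil peptide released with the mucins that promotes repair of the epithelium. Agr2 is a disulfide isomerase of the endoplasmic reticulum needed to fold mucins, and Spdef is the transcription factor that drives the late maturation of goblet and Paneth cells. Agr2 and Spdef are also made by mucous cells outside the intestinal villi, such as those of the stomach and of the Brunner glands of the duodenum. In whole tissue, fewer goblet cells and less RNA per goblet cell cannot be told apart.

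In the GENCODE annotation of GRCm38, all 7 are protein-coding genes. Muc2 lies at chr7:141690340-141754693 on the plus strand and Fcgbp at chr7:28071236-28120862 on the plus strand. Zg16 lies on the same chromosome at chr7:127050156-127087328 on the minus strand, where 2 noncoding genes on the other strand overlap it. Tff3 lies at chr17:31125306-31129646 and Spdef at chr17:27714352-27728955, both on the minus strand. Clca1 lies at chr3:145003817-145032776 on the minus strand, and Agr2 at chr12:35992907-36004087 on the plus strand. RefSeq promoter windows (GRCm38.p6) were matched for 4 of the 7 genes. The 250 bases before each start site are shown for all 4 of these, and their motifs were not tested against expression. Each is written 5′ to 3′ on the strand of its gene, and capitals mark a match to a searched motif. The windows are chr12:35992675-35992924 for Agr2, chr17:27728952-27729201 for Spdef, chr7:141690090-141690339 for Muc2 and chr7:28070986-28071235 for Fcgbp.
Agr2: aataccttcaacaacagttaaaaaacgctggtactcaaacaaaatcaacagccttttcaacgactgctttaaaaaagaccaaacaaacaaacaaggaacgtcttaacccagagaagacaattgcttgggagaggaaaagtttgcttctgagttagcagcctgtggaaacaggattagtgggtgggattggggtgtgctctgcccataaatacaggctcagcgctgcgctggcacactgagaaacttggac
Spdef: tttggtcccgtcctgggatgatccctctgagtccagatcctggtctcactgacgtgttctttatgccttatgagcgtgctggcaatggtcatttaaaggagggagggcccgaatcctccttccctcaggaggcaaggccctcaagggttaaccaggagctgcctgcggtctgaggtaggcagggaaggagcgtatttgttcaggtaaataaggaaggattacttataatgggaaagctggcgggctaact
Muc2: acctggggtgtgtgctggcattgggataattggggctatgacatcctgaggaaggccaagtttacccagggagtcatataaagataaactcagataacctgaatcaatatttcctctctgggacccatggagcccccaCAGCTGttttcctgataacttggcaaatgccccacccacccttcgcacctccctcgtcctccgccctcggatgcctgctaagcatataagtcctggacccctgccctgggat
Fcgbp: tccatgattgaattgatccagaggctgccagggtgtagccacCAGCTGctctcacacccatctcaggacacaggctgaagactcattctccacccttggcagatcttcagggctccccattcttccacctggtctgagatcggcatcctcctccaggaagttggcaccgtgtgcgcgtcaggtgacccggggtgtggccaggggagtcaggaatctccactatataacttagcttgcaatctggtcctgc
The motifs searched on both strands were the E-boxes CAGCTG and CAGATG, the forkhead motif TGTTTAC and the ETS motifs CCGGAT and CCGGAA. The E-box CAGCTG, which reads the same on both strands, was in the windows of Muc2, 112 bases before the start, and of Fcgbp, 208 bases before it, and in 13% of all 32817 windows of that length. The windows of Agr2 and Spdef held none of the motifs, which were each in between 3.2 and 14.5% of all windows.

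**Figure D1:**
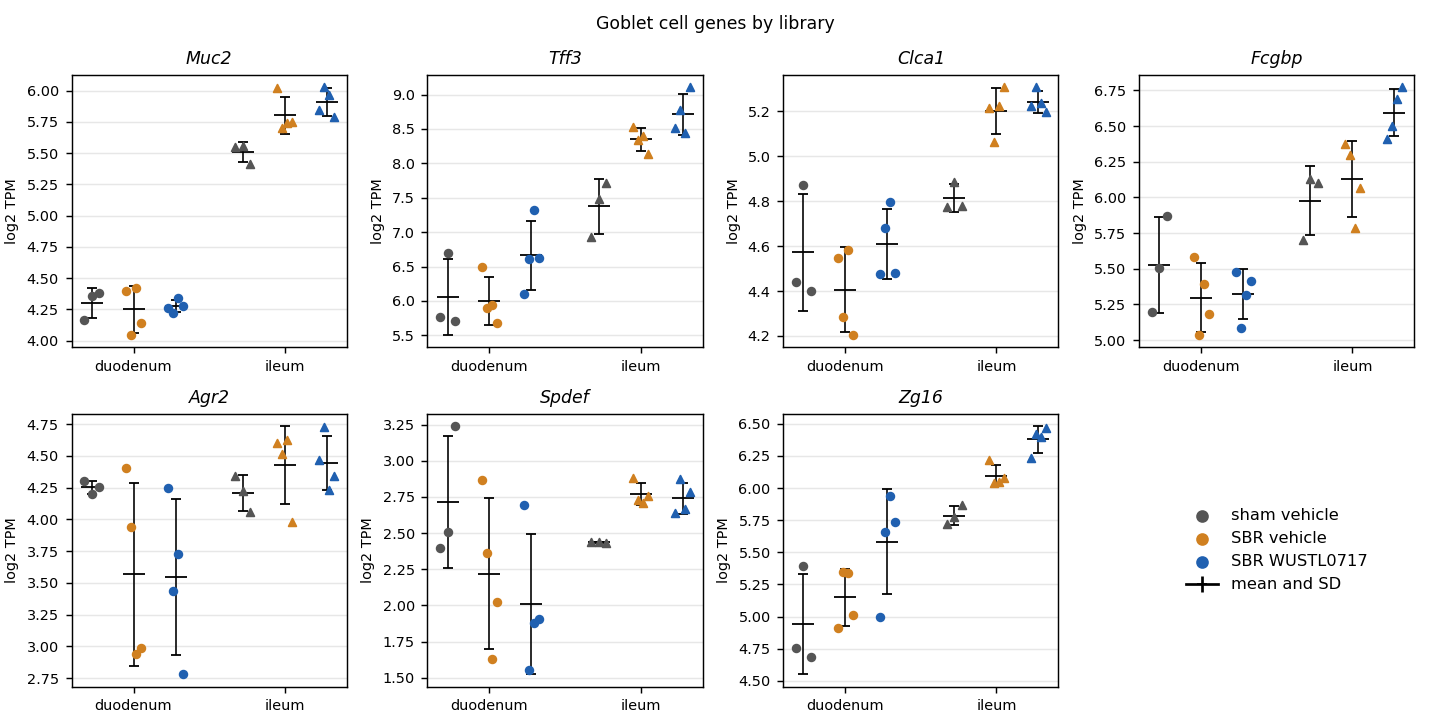
Log2 TPM (vertical axis, its range differing between panels) of each goblet cell gene in the 22 intestinal libraries, by region (circles duodenum, triangles ileum) and group (colors), with mean and SD as black bars. In the ileum, all SBR libraries lie above the sham libraries for Muc2, Tff3, Clca1, Spdef and Zg16, and in the duodenum Agr2 and Spdef spread over more than 1 log2 unit within both SBR groups.

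Before the comparisons, the tissues were checked against markers of other cells. Of 9 Brunner gland and gastric markers, 7 were in the table, and 6 of the 11 duodenal libraries held gastric transcripts at high levels. Gkn2, a gastrokine of the stomach surface, was 8.55 to 9.87 in these 6 libraries and was listed at a log2 value of 0 in the other 5 duodenal and in all ileal libraries. Tff1, the gastric trefoil peptide, was 3.15 to 4.56 in the same 6 libraries and 0.10 to 0.34 in the other 5. The 6 libraries were all 3 of the sham group, SBR vehicle 1 and 2 and SBR WUSTL0717 1. The mean level of the 7 markers was 6.37 to 7.24 in the sham duodenum, 0.34 to 6.62 with SBR and vehicle and 1.34 to 6.43 with SBR and WUSTL0717, and it was below 0 in every ileal library. Pancreatic acinar markers also varied in the duodenum, where their mean was 1.56 to 7.21, and were below 0 in the ileum. Read depth cannot be recovered from these values. The study removed differences between the intestinal and liver batches with ComBat, which moves and can rescale each gene, so levels were not compared between genes and sizes of difference hold only on the scale of the table. As a sign of this, Clca1 was within 0.05 of 4.61 in all 18 liver libraries, where few if any goblet cells occur, and below that value in several duodenal libraries.

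In the post-anastomotic ileum, the question was whether goblet cell transcripts differed after SBR. All 7 genes had higher means with SBR and vehicle than with sham, by 0.15 to 0.97 log2 units with a median of 0.31, where 57.7% of the 15772 genes tested had a positive difference and the median gene differed by 0.07. For 5 of 7, Muc2, Tff3, Clca1, Spdef and Zg16, every SBR library lay above every sham library, as was the case for 6.73% of all genes. None of the 7 passed limma at an adjusted p under 0.05, where 0.349% of all genes passed. At an unadjusted p under 0.05, Tff3 alone passed, 1 of 7 where 8.46% of all genes did, and none passed an adjusted p under 0.05 with the unmoderated two-sample test.

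Tff3 was 6.93, 7.48 and 7.71 in the sham ileum, 8.52, 8.33, 8.40 and 8.13 with SBR and vehicle, and 8.51, 8.78, 8.44 and 9.11 with SBR and WUSTL0717. Both SBR groups lay wholly above sham and overlapped each other. After SBR with vehicle, the log2 difference from sham was 0.97 ± 0.29 (SE), a 1.96-fold difference, with a limma p of 0.0063 and an adjusted p of 0.274, and the exact permutation test gave p = 0.0286, the smallest it can give for 4 libraries against 3. Muc2 was 5.55, 5.55 and 5.41 with sham and 6.02, 5.70, 5.74 and 5.75 with SBR and vehicle. The difference in Muc2 was 0.29 ± 0.22 (SE, adjusted p = 0.865 by limma), and the groups did not overlap (exact permutation p = 0.0286). Within its SBR group, library 1 stood above the other 3.

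Of the other mucus proteins, Clca1 was 4.77, 4.88 and 4.78 in the sham ileum and 5.22, 5.06, 5.22 and 5.31 with SBR and vehicle, a difference of 0.39 ± 0.21 (SE, adjusted p = 0.718 by limma). Zg16 was 5.72, 5.77 and 5.87 with sham and 6.22, 6.04, 6.05 and 6.08 with SBR and vehicle, a difference of 0.31 ± 0.22 (SE, adjusted p = 0.843 by limma). Neither pair of groups overlapped. Spdef was nearly the same in the 3 sham libraries, between 2.43 and 2.44, and was 2.88, 2.73, 2.71 and 2.76 with SBR and vehicle, a difference of 0.33 ± 0.20 (SE, adjusted p = 0.766 by limma). Fcgbp and Agr2 overlapped between the groups. Fcgbp was 5.70, 6.13 and 6.10 with sham and 6.38, 6.30, 5.78 and 6.06 with SBR and vehicle, and Agr2 was 4.34, 4.22 and 4.06 against 4.60, 4.51, 4.63 and 3.98.

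WUSTL0717 was compared with vehicle after SBR in the ileum. Fcgbp was 6.41, 6.50, 6.69 and 6.77 with WUSTL0717, above every SBR vehicle library, a difference of 0.46 ± 0.24 (SE), or 1.38-fold. Zg16 was 6.23, 6.42, 6.40 and 6.47 with WUSTL0717, also above every SBR vehicle library, a difference of 0.28 ± 0.20 (SE), or 1.22-fold. The exact permutation test gave p = 0.0286 for each, the smallest possible for 4 libraries against 4, but neither passed limma (adjusted p = 0.798 for Fcgbp and 0.889 for Zg16). These were 2 of 7 genes lying wholly higher, where 2.56% of all genes did. No goblet cell gene passed limma, where 0.0697% of all genes did. None had an unadjusted p under 0.05, where 6.87% of all genes did, and none passed the adjusted threshold with the unmoderated test. The other 5 genes overlapped between the groups, with differences of 0.36 ± 0.27 for Tff3, 0.11 ± 0.20 for Muc2, 0.04 ± 0.19 for Clca1, 0.01 ± 0.23 for Agr2 and -0.03 ± 0.18 for Spdef (SE), and 6 of 7 differences were positive (50.4% of all genes), with a median of 0.11.

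The SBR mice given WUSTL0717 were also compared with sham, which shares libraries with both comparisons above. All 7 differences were positive, from 0.24 for Agr2 to 1.34 for Tff3, with a median of 0.43, where 55.7% of all genes were positive. In 6 of 7, all but Agr2, the groups did not overlap, with WUSTL0717 higher, as in 9.46% of all genes. Tff3 rose by 1.34 ± 0.29 (SE), or 2.52-fold, with an adjusted p of 0.0406 by limma, the sole goblet cell gene past the threshold, which 1.66% of all genes passed in this direction. At an unadjusted p under 0.05, 3 of 7 passed, where 14.1% of all genes did. Removing any 1 of the 7 compared libraries ended the call of Tff3, with adjusted p between 0.0539 and 0.164, while its value stayed between 1.11 and 1.5. The call was also lost with quantile normalization (1.01, adjusted p = 0.0778), the compared groups alone (0.111), the unmoderated test (0.171) or the replicate block (0.168). Fcgbp differed by 0.62 ± 0.26 (SE, adjusted p = 0.297), Zg16 by 0.59 ± 0.22 (SE, adjusted p = 0.227), Clca1 by 0.43 ± 0.21 (SE, adjusted p = 0.394), Muc2 by 0.40 ± 0.22 (SE, adjusted p = 0.466) and Spdef by 0.30 ± 0.20 (SE, adjusted p = 0.567), all by limma.

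**Figure D2:**
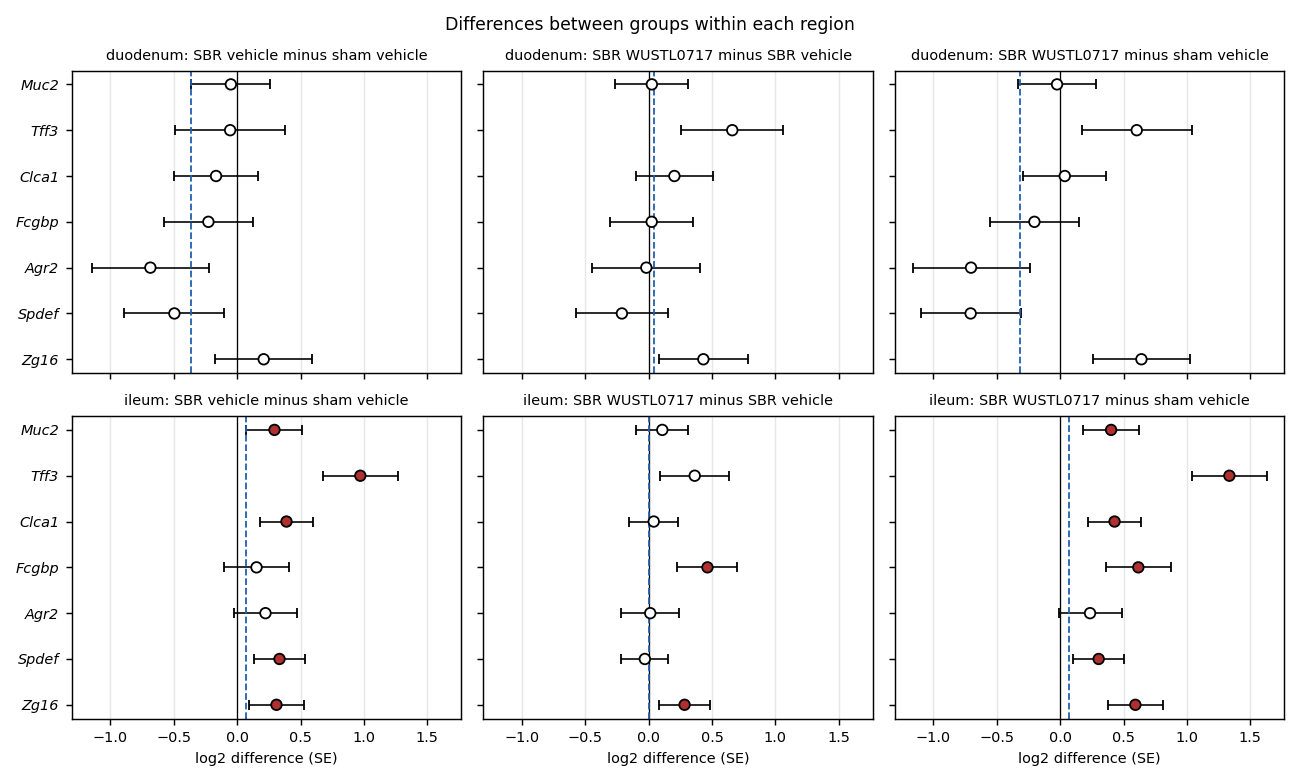
Log2 difference between groups (horizontal axis) with limma's standard error for each goblet cell gene, by region (rows) and comparison (columns); filled points mark genes whose libraries did not overlap between the groups, and the dashed line is the median over all genes tested. In the ileum all 7 points lie above 0 in both comparisons with sham, and in the duodenum no gene separated the groups.

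General epithelial transcripts moved with the ileal differences from sham. Between WUSTL0717 and vehicle after SBR, 5 of 10 pan-epithelial markers had positive differences, with a median of 0.001. The mean of 10 pan-epithelial markers was 6.55 to 6.67 in the sham ileum, 6.85 to 7.23 with SBR and vehicle and 6.98 to 7.42 with SBR and WUSTL0717, and all 10 had positive differences in both comparisons with sham, without any passing limma. When each library was centred on that mean, the difference between SBR with vehicle and sham was below 0 for 6 of 7 goblet cell genes, with a median of -0.20, and remained positive for Tff3 at 0.46. For WUSTL0717 against sham the centred median was -0.07, and Tff3 was 0.84 with an adjusted p of 0.118 by limma. Against the shifted median of all genes (-0.44 and -0.43), the goblet cell medians were still the higher. With libraries centred on their own median instead, all 7 differences stayed positive in both comparisons. Muscle and stroma markers also had positive differences, 10 of 10 in each comparison with sham, with medians of 0.45 and 0.26, and 9 of 9 leukocyte markers had negative differences in each, with medians of -0.45 and -0.71. Of these, Jchain, the joining chain of secreted antibodies, fell with WUSTL0717 by 1.57 (SE 0.35, adjusted p = 0.0429 by limma), a call that was kept only without sham 3 among the 7 fits with 1 library left out (adjusted p up to 0.166), and that was lost with the unmoderated test (0.253), the compared groups alone (0.106) and the replicate block (0.136). The part of these cells in the goblet cell differences was not tested.

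**Figure D3:**
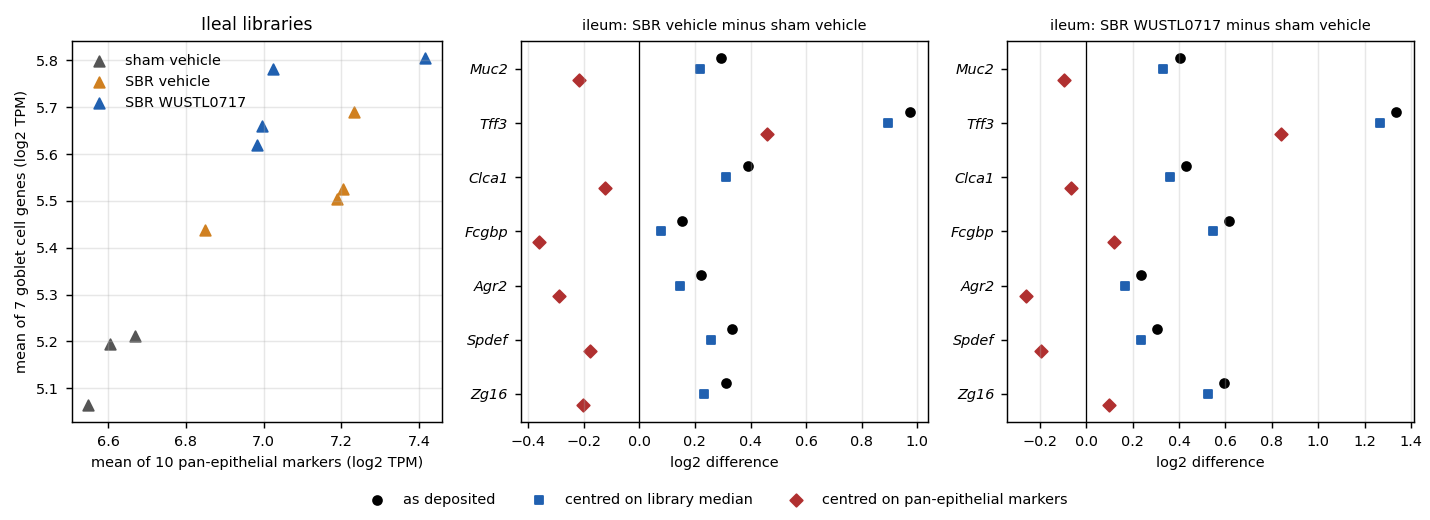
Left, mean log2 TPM of the 7 goblet cell genes against that of 10 pan-epithelial markers in the 11 ileal libraries; middle and right, log2 difference of each gene from sham with the values as deposited and with libraries centred on their median or on the pan-epithelial markers. Both means are higher in all SBR libraries than in sham, and centring on the epithelial markers puts all genes but Tff3 below 0 for SBR with vehicle.

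Other genes of goblet cell biology were taken from lists. In the comparison of SBR with vehicle against sham in the ileum, none of the genes in these lists passed limma with the values as deposited. Of 14 factors of the secretory lineage, 9 had positive differences with a median of 0.23, and 3 had an unadjusted p under 0.05. The one with the smallest p was Foxa3, a forkhead factor of goblet cells, at 0.87 ± 0.26 (SE, adjusted p = 0.252 by limma), which missed the threshold. Of 18 other goblet cell products tested, 14 were positive (median 0.26), and of 26 genes of mucin O-glycosylation, 20 were positive (median 0.23). Gcnt1, a branching enzyme of mucin glycans, came nearest in that list at 1.33 ± 0.29 (SE, adjusted p = 0.0964 by limma), passed with quantile normalization (1.32, adjusted p = 0.0464) and was 0.65 with a pseudocount of 5 and 0.82 with pan-epithelial centring. Of 22 genes of protein folding and stress in the endoplasmic reticulum, 9 were positive, with a median of -0.09, and of 18 genes of granule release and mucus processing, 14 were positive (median 0.29).

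With WUSTL0717 after SBR, 3 genes of these lists fell against sham in the ileum, 1 of 18 other goblet cell products, 1 of 5 membrane and other gel mucins tested and 1 of 7 genes of the IL-4/IL-13 and tuft cell circuit, where 0.514% of all genes were called lower. Most of the goblet cell products went the other way, with 12 of 18 positive and a median of 0.14. Of the mucins 2 of 5 were positive (median -0.07), and of the circuit genes 3 of 7 (median -0.35). Dmbt1, a scavenger glycoprotein of the gut lining counted among the goblet cell products, was 5.79, 5.43 and 5.58 with sham, 5.19, 6.01, 4.97 and 4.97 with SBR and vehicle, and 3.61, 3.47, 1.75 and 1.67 with WUSTL0717. It fell by 2.97 against sham (SE 0.49, adjusted p = 0.0122 by limma), and against SBR with vehicle it differed by -2.66 ± 0.46 (SE, adjusted p = 0.0972), with no overlap. Muc4, a membrane mucin, was 2.71 to 3.18 with sham and 1.43 to 1.86 with WUSTL0717, and fell by 1.33 (SE 0.23, adjusted p = 0.0151 by limma). Il33, an alarmin upstream of the type 2 cytokines that drive goblet cells, was 2.7 to 3.5 with sham and 0.96 to 1.60 with WUSTL0717, and fell by 1.85 (SE 0.29, adjusted p = 0.00962 by limma). Muc4 and Il33 were already lower with SBR and vehicle, at 1.73 to 2.14 and 1.44 to 2.14, without passing there. Each of the 3 calls was lost in some fits that left out a library: Dmbt1 without sham 1 (adjusted p = 0.0652) or sham 2 (0.0555), Il33 without sham 1 (0.0540) or sham 2 (0.0585), and Muc4 without sham 1 (0.0809), sham 2 (0.0692) or WUSTL0717 3 (0.0511), all by limma. All 3 also missed the threshold with the unmoderated test (adjusted p = 0.192, 0.12 and 0.102 for Dmbt1, Il33 and Muc4), and Muc4 with the compared groups alone (0.0552) or the replicate block (0.0799), while a pseudocount of 5 brought Muc4 to -0.73 and Il33 to -1.02. Among 12 Paneth cell markers, secretory neighbours of goblet cells in the crypt, all 12 had negative differences in this comparison with a median of -0.85 and none passed. Of 9 enteroendocrine markers, 7 had positive differences, with a median of 0.30 and a lowest value of -0.56. Among them 3 peptide hormone genes rose (1.66% of all genes), Pyy by 1.40 ± 0.23, Nts by 1.47 ± 0.27 and Sct by 1.28 ± 0.22 (SE, adjusted p = 0.0115, 0.0202 and 0.0140 by limma). Without sham 1 or sham 2 all 3 of these calls were lost (adjusted p from 0.0595 to 0.097), and that of Nts also without WUSTL0717 3 (0.0511) or 4 (0.0509). They were also lost with the unmoderated test, the compared groups alone, the replicate block or centring on the pan-epithelial markers (adjusted p from 0.0548 to 0.155), and the last brought Pyy to 0.90, Nts to 0.98 and Sct to 0.79. Against SBR with vehicle, none of the genes in these lists passed limma in the ileum, but Dmbt1 passed with library weights (adjusted p = 0.0144), the filter at 3 (0.0320), a pseudocount of 5 (0.0475) or pan-epithelial centring (0.0393), and without WUSTL0717 1 (0.0477). In that comparison, 0 of 12 Paneth cell markers had positive differences (median -0.72) and 8 of 9 enteroendocrine markers did (median 0.32).

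In the duodenum, no goblet cell gene passed limma after SBR with vehicle (0 of 7, and 0% of the 15093 genes tested), none had an unadjusted p under 0.05 (16.1% of all genes) and none passed the adjusted threshold with the unmoderated test. No gene separated the groups, which 9.65% of all genes did in either direction. One gene, Zg16, had a positive difference, where 30% of all genes did, and the median of the 7 was -0.17 against -0.36 for all genes. The difference was 0.21 ± 0.38 for Zg16, -0.05 ± 0.31 for Muc2, -0.06 ± 0.44 for Tff3, -0.17 ± 0.33 for Clca1 and -0.23 ± 0.35 for Fcgbp (SE), all above the median of all genes, and it was below that median for Agr2 and Spdef. Leaving out 1 library moved the median of the 7 to between -0.23 and -0.02. Fcgbp then ran from -0.39 to -0.05, Clca1 from -0.25 to -0.02 and Zg16 from 0.08 to 0.43. With libraries centred on their medians, 5 of 7 differences were positive.

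The largest duodenal differences between SBR with vehicle and sham were those of Agr2 and Spdef. Agr2 was 4.30, 4.20 and 4.25 with sham, 4.40, 3.94, 2.94 and 2.98 with SBR and vehicle, and 4.25, 3.43, 3.73 and 2.78 with SBR and WUSTL0717. Sham libraries were tightly grouped, whereas with SBR and vehicle libraries 3 and 4 lay more than 1 log2 unit lower, and with SBR and WUSTL0717 library 1 was at the sham level and the other 3 were spread below it. Spdef was 2.40, 2.51 and 3.24 with sham, 2.87, 2.37, 1.63 and 2.02 with SBR and vehicle, and 2.7, 1.55, 1.88 and 1.91 with SBR and WUSTL0717. The differences of SBR with vehicle from sham were -0.69 ± 0.46 (SE, adjusted p = 0.443 by limma) for Agr2 and -0.50 ± 0.40 (SE, adjusted p = 0.511 by limma) for Spdef. Leaving out 1 library gave -0.96 to -0.48 for Agr2 and -0.71 to -0.23 for Spdef, the last of these without sham 3.

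These low libraries were the 5 with low Tff1 and Gkn2 listed at 0. In the 6 duodenal libraries with high Tff1, Agr2 was 3.94 to 4.40 and Spdef 2.37 to 3.24, and in the 5 libraries with low Tff1 Agr2 was 2.78 to 3.73 and Spdef 1.55 to 2.02, so neither gene overlapped between these sets of samples. Muc2, Tff3, Clca1, Fcgbp and Zg16 overlapped between the sets. The share of all genes that separated along this split, which was drawn from these same data, was not counted. Muc6 and Tff2, mucous genes of Brunner glands as well as stomach, followed the same split, at 6.58 to 8.16 and 8.07 to 9.30 in the 6 libraries and 1.71 to 5.07 and 0.64 to 6.25 in the 5. Within the libraries of high Tff1, the 2 SBR vehicle libraries gave Agr2 of 3.94 and 4.40 and the 3 sham libraries 4.20 to 4.30. Leaving out the 5 libraries of low Tff1 brought the difference of SBR with vehicle from sham to -0.08 for Agr2 and to -0.10 for Spdef, and using the mean of Muc6 and Tff2 as a covariate brought it to -0.20 and -0.04. Both alternatives were chosen after the values were seen. No sham duodenum was low in Tff1, so SBR and sham cannot be compared among such libraries, and the part of stomach or Brunner gland tissue in these differences cannot be told apart from that of SBR in the lower libraries.

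The other lists showed no call in the duodenum after SBR with vehicle. Of the 14 secretory lineage factors, 3 had positive differences, with a median of -0.97, of 19 other goblet cell products 2 (median -0.45), of 22 genes of the endoplasmic reticulum list 3 (median -0.88) and of 23 genes of mucin O-glycosylation 7 (median -0.22). Paneth cell markers had a median of -1.33 and stem and cycling cell markers one of -1.15 (0 of 9 positive), while 9 of 10 enterocyte markers were positive. With WUSTL0717, Ang4, an antimicrobial ribonuclease of goblet and Paneth cells, fell by 1.57 against sham (SE 0.30, adjusted p = 0.0365 by limma). That call was lost in all 7 fits with 1 library left out (adjusted p from 0.0619 to 0.137) and under 9 of 13 other settings, over which the difference ran from -2.15 to -0.77 and the adjusted p up to 1. In the same comparison all 12 Paneth cell markers had negative differences, with a median of -1.27 and 10 at an unadjusted p under 0.05, where 16.9% of all genes were, and Ang4, which is on that list too, was the one called. Fabp2, a fatty acid binding protein of enterocytes, rose by 3.45 ± 0.66 (SE, adjusted p = 0.0348 by limma), a call lost in 5 of 7 such fits, those without sham 1 or 3 or WUSTL0717 2, 3 or 4 (adjusted p from 0.0622 to 0.181), and in 5 of 14 other settings, over which it ran from 2.49 to 3.81 with an adjusted p of up to 1.

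**Figure D4:**
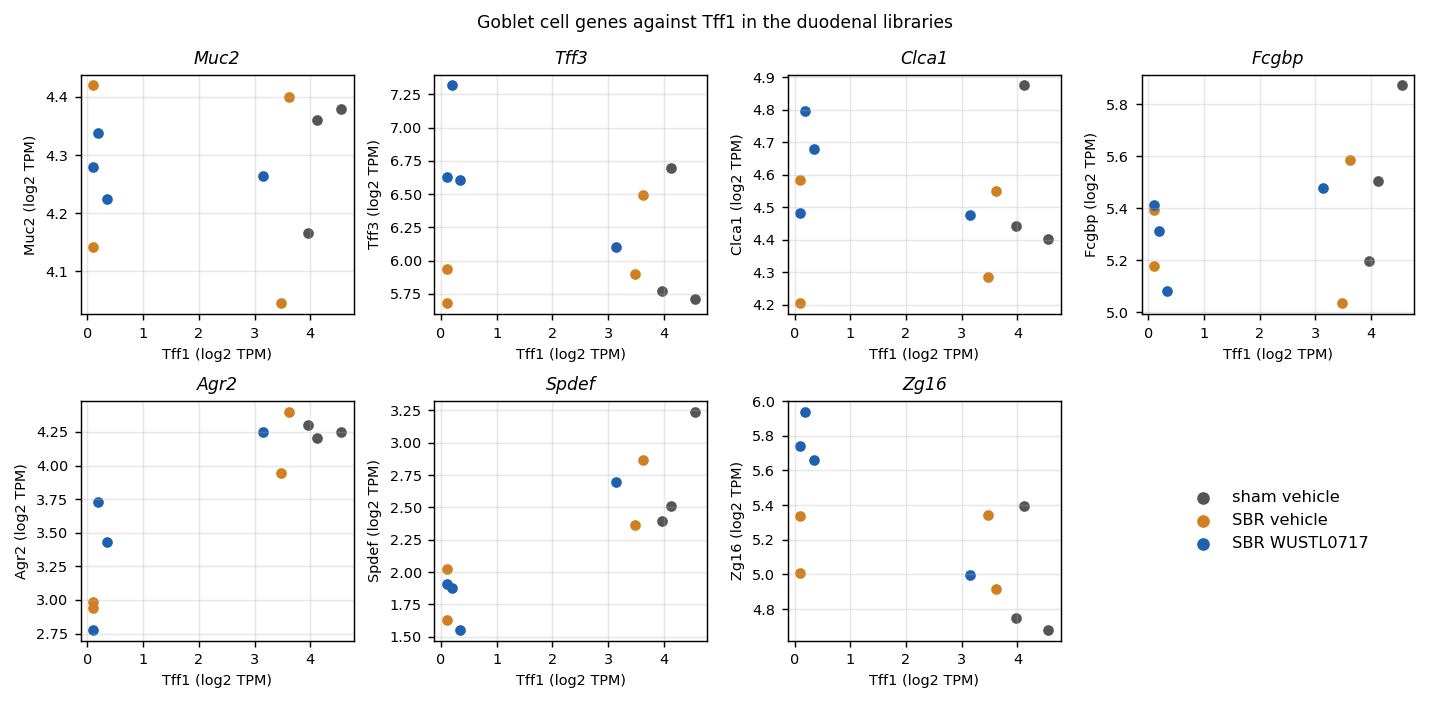
Log2 TPM of each goblet cell gene (vertical axis) against gastric Tff1 (horizontal axis) in the 11 duodenal libraries, colored by group. The libraries fall into 6 with Tff1 of at least 3.15 and 5 at 0.34 or less, and only Agr2 and Spdef of the 7 genes separate fully along this split. The share of all genes that do so was not counted.

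WUSTL0717 against vehicle in the duodenum of SBR mice gave no call among the goblet cell genes, with 0.258% of all genes called, none at an unadjusted p under 0.05 (5.31% of all genes) and none past the adjusted threshold with the unmoderated test. Of the 7 genes, 5 had positive differences (54.1% of all genes) and 0 separated the groups, which 3.15% of all genes did. Tff3 was 6.50, 5.90, 5.94 and 5.68 with SBR and vehicle and 6.10, 6.60, 7.32 and 6.63 with WUSTL0717. Its difference was 0.66 ± 0.40 (SE, adjusted p = 1 by limma; exact permutation p = 0.0571), with WUSTL0717 1, a library that held gastric transcripts, inside the range of the vehicle group. In the libraries of low Tff1, 3 with WUSTL0717 and 2 with vehicle, the difference of Tff3 was 1.04 (adjusted p = 0.71 by limma), and among those of high Tff1, 1 with WUSTL0717 and 2 with vehicle, it was -0.10. Zg16 was 4.91, 5.34, 5.34 and 5.01 with vehicle and 4.99, 5.66, 5.94 and 5.74 with WUSTL0717, a difference of 0.43 ± 0.35 (SE). In the same comparison all 10 pancreatic acinar markers had positive differences, with a median of 2.10, and their part in the Zg16 difference was not tested. The sham values of Zg16 were 4.75, 5.39 and 4.68. Muc2 differed by 0.02 ± 0.29, Fcgbp by 0.02 ± 0.33, Agr2 by -0.02 ± 0.43, Clca1 by 0.20 ± 0.30 and Spdef by -0.21 ± 0.37 (SE). Against sham, the duodenum of SBR mice given WUSTL0717 had 0 of 7 genes past the threshold (0.802% of all genes), none with an unadjusted p under 0.05 (16.9%), 3 positive differences (32.8%) and 0 without overlap (18.4%), with differences between -0.71 and 0.64 and a median of -0.02. Leaving out 1 library moved that median to between -0.093 and 0.0046. Without sham 2, 3 of the 7 genes lay wholly above sham, where the share of all genes was not counted.

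Goblet cells are more numerous in the ileum, and the regions were compared within each group. In sham mice, Muc2 was higher in the ileum by 1.21 ± 0.26 (SE), or 2.31-fold (adjusted p = 0.00354 by limma), and Tff3 by 1.32 ± 0.39 (SE), or 2.49-fold (adjusted p = 0.0278), so 2 of 7 genes passed where 10.8% of all 15923 genes tested did in this direction. Zg16 also lay wholly higher, by 0.84 ± 0.31 (SE, adjusted p = 0.0744 by limma), making 3 of 7 genes without overlap, where 30.8% of all genes were, and 5 of 7 differences were positive (74.3% of all genes). Fcgbp and Clca1 differed by 0.45 ± 0.31 and 0.24 ± 0.27 (SE). Agr2 and Spdef did not have higher means in the ileum, with differences of -0.05 ± 0.39 and -0.28 ± 0.32 (SE), in a comparison in which every sham duodenum held gastric transcripts. The call of Tff3 was lost without sham duodenum 1 (adjusted p = 0.102) or 3 (0.0918) and without sham ileum 2 (0.0948) or 3 (0.1), by limma, and also with the unmoderated test (0.135) or the replicate block (0.0501). With the compared groups alone neither passed limma (adjusted p = 0.0562 for Muc2 and 0.0994 for Tff3).

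After SBR with vehicle, 6 of 7 genes were higher in the ileum, all but Spdef, where 50.2% of all genes were. All 7 differences were positive (80.6% of all genes) and 5 of 7 genes did not overlap between the regions (37.6%). Tff3 was higher by 2.34 ± 0.34 (SE), or 5.08-fold (adjusted p = 2.01e-05 by limma), Muc2 by 1.55 ± 0.23 (SE), or 2.93-fold (adjusted p = 2.54e-05), Zg16 by 0.94, Agr2 by 0.86, Fcgbp by 0.83 and Clca1 by 0.80, while Spdef differed by 0.55 ± 0.28 (SE, adjusted p = 0.099). With WUSTL0717, 7 of 7 passed, where 48.7% of all genes did, all 7 differences were positive (80% of all genes) and 5 did not overlap (41.4%), with Tff3 at 2.05 ± 0.34 (SE), Muc2 at 1.63 ± 0.23 (SE), Fcgbp at 1.27 ± 0.27 (SE), Agr2 at 0.89, Zg16 at 0.80, Spdef at 0.73 and Clca1 at 0.63. The counts fell to 4 and 3 with the compared groups alone, to 5 and 5 with the unmoderated test and to 2 and 3 with quantile normalization, and Muc2 and Tff3 passed in each of these. The median gene was itself higher in the ileum by 0.52 in sham, 0.98 with SBR and vehicle and 0.95 with SBR and WUSTL0717, and the goblet cell medians were 0.45, 0.86 and 0.89. Muc2 and Tff3 exceeded that shift in all 3 groups. After centring each library on its median, 0, 2 and 2 goblet cell genes passed in the 3 groups, and the differences of Clca1 turned negative in all 3 (-0.21, -0.13 and -0.25) and those of Spdef were -0.38 and -0.15 after SBR. The pan-epithelial mean was 4.97 to 6.18 in the duodenum and 6.55 to 7.42 in the ileum. With libraries centred on it, Tff3 alone stayed higher in the ileum in all 3 groups (by 0.20, 0.65 and 0.32, none passing limma), Muc2 was 0.08 in sham and -0.15 and -0.10 after SBR, and the other 5 genes had negative differences in every group. The direction of the calls was then the reverse, with 3, 4 and 4 goblet cell genes passing limma as lower in the ileum. These were Clca1, Agr2 and Spdef in all 3 groups (in sham, adjusted p = 0.04, 0.00728 and 0.000908), with Fcgbp after SBR with vehicle (adjusted p = 0.0148) and Zg16 with WUSTL0717 (adjusted p = 0.0264). The share of all genes called is not given for this or the other alternative settings of this paragraph, so these counts cannot be set against it. The medians of the 7 genes were -0.67, -0.83 and -0.84, against -0.60, -0.72 and -0.78 for all genes. When only the duodenal libraries of low Tff1 were used, Agr2 was higher in the ileum by 1.47 and 1.13 and Spdef by 0.95 and 0.96 in the 2 SBR groups. When only those of high Tff1 were used, 1 of them with WUSTL0717, Agr2 differed by 0.26 and 0.19 and Spdef by 0.16 and 0.04. After SBR with vehicle, neither of these passed limma and 4 of the 7 genes did. The calls with WUSTL0717 rest on 1 duodenal library there and are not given. With low Tff1, the medians of the 7 genes were 0.95 and 1.13, against 1.07 and 1.05 for all genes. Leaving out single libraries changed several calls. After SBR with vehicle, Agr2 was lost without duodenum 3 or 4 or ileum 1, 2 or 3 (adjusted p from 0.0644 to 0.125), and Spdef passed without duodenum 1 (0.77, adjusted p = 0.0212). With WUSTL0717, Agr2 was lost without duodenum 2 or 4 or ileum 1 or 2 (adjusted p from 0.0543 to 0.13), and Spdef without duodenum 2, 3 or 4 or ileum 2 or 4 (0.0587 to 0.112). Clca1 was lost there without duodenum 1 (0.0527) or 4 (0.0628), and Zg16 without duodenum 1 (0.0702). In sham mice, Zg16 passed without duodenum 2 (1.07, adjusted p = 0.0475). All of these are limma fits.

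**Figure D5:**
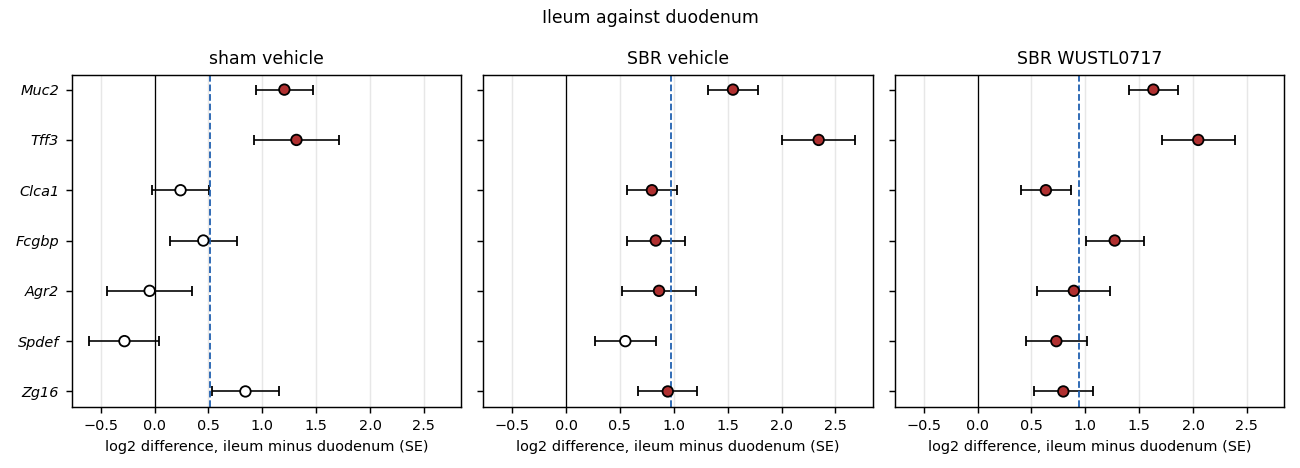
Log2 difference between ileum and duodenum (horizontal axis) with limma's standard error for each goblet cell gene in each group; filled points passed an adjusted p under 0.05 and the dashed line is the median of all genes tested. Muc2 and Tff3 lie to the right of the dashed line in all 3 groups, but with libraries centred on the pan-epithelial markers Muc2 was below 0 after SBR.

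The difference between the regions in their response was tested directly. The SBR difference of the ileum minus that of the duodenum was positive for all 7 genes, though it turned negative for Muc2, Fcgbp and Zg16 with libraries centred on their median, for these and Clca1 with pan-epithelial centring (median -0.02) and for Zg16 with quantile normalization. It was 1.03 ± 0.52 for Tff3, 0.91 ± 0.52 for Agr2, 0.83 ± 0.43 for Spdef, 0.56 ± 0.35 for Clca1, 0.38 ± 0.41 for Fcgbp, 0.34 ± 0.35 for Muc2 and 0.10 ± 0.42 for Zg16 (SE), with a median of 0.56, and 71.6% of all genes were positive in this contrast with a median of 0.44. None of the 7 passed limma, where 0.0754% of all genes did in either direction, and none had an unadjusted p under 0.05 (13.8% of all genes). Tff3 came nearest in this limma fit, with an adjusted p of 0.377, and passed only with library weights (1.47, adjusted p = 0.0407). For the effect of WUSTL0717, 4 of 7 differences were positive (47.3% of all genes) with a median of 0.03. None of the 7 passed, where 0.0251% of all genes did, or had an unadjusted p under 0.05, where 3.33% did.

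The genes whose pattern was most like the goblet cell genes were found by Pearson correlation with the mean of the 7 standardized genes over the 22 intestinal libraries, out of 15916 genes. With the mean of each region removed, the 5 most alike were Gm29014 (r = 0.895), Ubl4a (0.894), Ank (0.889), Kbtbd11 (0.870) and Nadk (0.860). With the means of all 6 groups removed, genes among the most alike were Atp5b (r = 0.902), Arf1 (0.897), Coro1b (0.894) and Rnf121 (0.882), none of which was in the list with region means removed. With region means removed, the members themselves correlated with their common mean at 0.847 for Muc2, 0.818 for Tff3, 0.817 for Clca1 and 0.732 for Fcgbp, and at 0.474 or less for Zg16, Agr2 and Spdef. The common mean holds the member itself, which raises these values, unlike those of genes outside the 7. The libraries share 1 table and its scaling, and no test was made of these values.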

How the data were processed

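Per the study's methods, the authors depleted rRNA, mapped with STAR to GRCm38, counted with featureCounts, normalized with edgeR's TMM and TPM, took log2 values (pseudocount not given in the sources used here) and corrected intestine (batch 1) and liver (batch 2) with ComBat. These deposited log2 TPM values were used as they stand, in 22 intestinal libraries. The liver was used for the description of ComBat and 2 closing remarks only. Strandedness is not given, so reads of Zg16 and of the genes opposite it may be mixed.

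The 15093 genes of the duodenum, 15772 of the ileum and 15923 of the whole intestine that averaged 1 or more on the log2 scale went into limma (3.58.1, R 4.3.3, moderated, with a mean-variance trend) and Benjamini-Hochberg adjustment over all of them, at an adjusted p under 0.05. Within a region, the 3 groups of 11 libraries shared 1 fit. Comparisons of regions used 22 libraries. Single values were also compared with a two-sided exact permutation test, whose smallest p is 0.0286 with 4 libraries against 3 or 4, and 0.1 with 3 against 3. Within a region, p-values measure the spread between single mice. Between regions, libraries were fitted as unpaired, though some may come from the same mouse. The fits were first tested on simulated data, in which 200 genes were given a difference of 2 log2 units. Of these, 35 to 49.5% were recovered in the duodenum, 69 to 74.5% in the ileum and 46 to 68.5% between regions. For the differences between regions in response, 15.5% were recovered for SBR and 30.5% for WUSTL0717.

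The 7 members and the other lists were chosen with earlier results of these data known. All 7 were named in each comparison, and, of each other list described within a region, the genes called if at most 3, otherwise the 3 with the smallest p. Where none was called, the gene with the smallest p could be named, which was done for some lists only. One gene of the likeness lists is not reported here. For the duodenum of WUSTL0717 mice against sham and the effect of WUSTL0717 between regions, only summaries of the members are given, and the other lists are not described between regions. The alternatives were no or a stricter filter, other pseudocounts, centring on the library median or pan-epithelial markers, quantile normalization, library weights, no trend, compared groups alone, an unmoderated test, a fold rule, a replicate block and leaving out each library. A covariate of Muc6 and Tff2 and splits on Tff1 were added after seeing the data. Python 3.11.15, numpy 2.4.6, pandas 2.3.3 and matplotlib 3.10.9 were used for sequences and figures.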

Additional observations from a re-analysis of the deposited data

Results flagged for a closer look

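Muc2 in the ileum after SBR with vehicle had 1 library far from the others. Replicate 1 was 6.02, and the other 3 were 5.70 to 5.75. Its gap was 0.848 of the range of the group, above the limit of 0.829 for 4 samples. Each goblet cell gene was tested in the 4 intestinal groups of 4 libraries, and of these 28 sets this was the sole one past the limit, and chance alone marks about 1 in 20 such groups.

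Zg16 showed signal in the liver, which no comparison of the goblet cell genes used. SBR vehicle replicate 7 was 7.72, where the sham livers were 5.33 to 5.62. In the same library Cpa1, a pancreatic enzyme, was 7.51, and it was 1.81 to 1.90 in the other livers. The part of pancreatic tissue in the Zg16 value was not tested.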

How the results depend on the processing

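No setting gave a call among the 7 goblet cell genes for SBR against sham or WUSTL0717 against vehicle in either region. By setting, single genes that turned direction, medians of the 7 genes that moved by more than the spread between replicates and counts that moved by over 1.5 times are given in log2 units or genes, and the cause was not tested. With libraries centred on their median, SBR with vehicle against sham in the duodenum gave a median of 0.24, Muc2 at 0.35, Tff3 at 0.35, Clca1 at 0.24 and Fcgbp at 0.18. For WUSTL0717 against vehicle in the duodenum, it gave Muc2 at -0.017 and Fcgbp at -0.018. The result for WUSTL0717 against sham in the duodenum was a median of 0.34. It gave 0 goblet cell genes called, a median of -0.00029, Clca1 at -0.21 and Fcgbp at -0.00029 for ileum against duodenum in sham. Ileum against duodenum with SBR and vehicle then gave 2 goblet cell genes called, a median of -0.069, Clca1 at -0.13, Fcgbp at -0.099, Agr2 at -0.069 and Spdef at -0.38. For ileum against duodenum with SBR and WUSTL0717, it gave 2 goblet cell genes called, a median of 0.010, Clca1 at -0.25, Spdef at -0.15 and Zg16 at -0.088. The result for the difference between regions in the effect of SBR was a median of 0.077, Muc2 at -0.13, Fcgbp at -0.099 and Zg16 at -0.38. With quantile normalization, SBR with vehicle against sham in the duodenum gave a median of 0.051, Muc2 at 0.21, Tff3 at 0.086 and Clca1 at 0.051. WUSTL0717 against vehicle in the duodenum then gave Muc2 at -0.055 and Fcgbp at -0.14. For WUSTL0717 against sham in the duodenum, it gave a median of 0.15. The result for SBR with vehicle against sham in the ileum was a median of 0.21. It gave a median of -0.0029, Muc2 at -0.024, Clca1 at -0.067 and Agr2 at -0.036 for WUSTL0717 against vehicle in the ileum. WUSTL0717 against sham in the ileum then gave 0 goblet cell genes called and a median of 0.27. For ileum against duodenum in sham, it gave a median of 0.16 and Clca1 at -0.21. The result for ileum against duodenum with SBR and vehicle was 2 goblet cell genes called, a median of 0.26, Agr2 at -0.015 and Spdef at -0.37. It gave 3 goblet cell genes called, a median of 0.30, Clca1 at -0.11 and Spdef at -0.082 for ileum against duodenum with SBR and WUSTL0717. The difference between regions in the effect of SBR then gave a median of 0.27 and Zg16 at -0.14. With libraries centred on the pan-epithelial markers, SBR with vehicle against sham in the duodenum gave Muc2 at 0.013 and Tff3 at 0.0072. The result for WUSTL0717 against vehicle in the duodenum was Agr2 at 0.029. It gave a median of -0.20, Muc2 at -0.22, Clca1 at -0.12, Fcgbp at -0.36, Agr2 at -0.29, Spdef at -0.18 and Zg16 at -0.20 for SBR with vehicle against sham in the ileum. WUSTL0717 against sham in the ileum then gave 0 goblet cell genes called, a median of -0.069, Muc2 at -0.096, Clca1 at -0.069, Agr2 at -0.26 and Spdef at -0.19. For ileum against duodenum in sham, it gave a median of -0.67, Clca1 at -0.88, Fcgbp at -0.67 and Zg16 at -0.28. The result for ileum against duodenum with SBR and vehicle was a median of -0.83, Muc2 at -0.15, Clca1 at -0.90, Fcgbp at -0.86, Agr2 at -0.83, Spdef at -1.15 and Zg16 at -0.75. It gave 4 goblet cell genes called, all lower in the ileum (as were 3 in sham and 4 with SBR and vehicle), a median of -0.84, Muc2 at -0.098, Clca1 at -1.10, Fcgbp at -0.46, Agr2 at -0.84, Spdef at -0.998 and Zg16 at -0.93 for ileum against duodenum with SBR and WUSTL0717. The difference between regions in the effect of SBR then gave a median of -0.019, Muc2 at -0.23, Clca1 at -0.019, Fcgbp at -0.19 and Zg16 at -0.47. With library weights, SBR with vehicle against sham in the duodenum gave a median of -0.40. The result for WUSTL0717 against vehicle in the duodenum was Agr2 at 0.12. It gave Agr2 at -0.14 for WUSTL0717 against vehicle in the ileum. The difference between regions in the effect of SBR then gave 1 goblet cell gene called, Tff3 at 1.47 (adjusted p = 0.0407 by limma), and a median of 0.77. For the difference between regions in the effect of WUSTL0717, it gave a median of -0.25. With the replicate number as a block, SBR with vehicle against sham in the duodenum gave Tff3 at 0.0046. It gave 0 goblet cell genes called for WUSTL0717 against sham in the ileum. Ileum against duodenum in sham then gave 1 goblet cell gene called. With the compared groups alone, WUSTL0717 against sham in the ileum gave 0 goblet cell genes called. The result for ileum against duodenum in sham was 0 goblet cell genes called. It gave 3 goblet cell genes called for ileum against duodenum with SBR and WUSTL0717. With the unmoderated two-sample test, WUSTL0717 against sham in the ileum gave 0 goblet cell genes called. For ileum against duodenum in sham, it gave 1 goblet cell gene called. With the filter at 3, ileum against duodenum in sham gave a median of 0.65. It gave a median of 1.08 for ileum against duodenum with SBR and WUSTL0717. With a pseudocount of 5, ileum against duodenum with SBR and WUSTL0717 gave a median of 0.74. With an unadjusted p under 0.05 and a 2-fold difference as the rule, ileum against duodenum with SBR and vehicle gave 2 goblet cell genes called. The result for ileum against duodenum with SBR and WUSTL0717 was 3 goblet cell genes called. With the mean of Muc6 and Tff2 as a covariate, WUSTL0717 against vehicle in the duodenum gave Agr2 at 0.047. With the 6 duodenal libraries of high Tff1 left out, WUSTL0717 against vehicle in the duodenum gave a median of 0.26, Fcgbp at -0.016 and Agr2 at 0.35. For ileum against duodenum with SBR and WUSTL0717, it gave a median of 1.13. The result for the difference between regions in the effect of WUSTL0717 was a median of -0.22. With the other 5 duodenal libraries left out, which leaves 1 duodenal library with WUSTL0717, assumed to vary like the rest, SBR with vehicle against sham in the duodenum gave Tff3 at 0.14. WUSTL0717 against vehicle in the duodenum then gave Tff3 at -0.097, Agr2 at 0.079, Spdef at 0.082 and Zg16 at -0.13. For ileum against duodenum with SBR and WUSTL0717, it gave a median of 1.12. The result for the difference between regions in the effect of SBR was a median of 0.37. Smaller moves were those of WUSTL0717 against sham in the duodenum, to a median of 0.086 with pan-epithelial centring and 0.0057 with the filter at 3, and of ileum against duodenum with SBR and vehicle, to 4 called genes with the compared groups alone or the 5 libraries left out.

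The numbers of libraries were not taken to pair them: the mean correlation of deviations between equal numbers was 0.009 in the duodenum, -0.05 in the ileum and 0.12 between duodenum and ileum, where it was -0.04 for other numbers and the lowest pair was at -0.14. With the replicate block, the call of Tff3 for WUSTL0717 against sham in the ileum was lost (1.30, adjusted p = 0.168 by limma), as were those of Tff3 for ileum against duodenum in sham (adjusted p = 0.0501) and of Clca1 for ileum against duodenum with WUSTL0717 (adjusted p = 0.0641), and no other call of a goblet cell gene changed. When 1 library was left out at a time, some values changed direction or call. For SBR with vehicle against sham in the duodenum, these ranges were Muc2 from -0.12 to 0.019 and Tff3 from -0.23 to 0.26. For WUSTL0717 against vehicle in the duodenum, these ranges were the median of the goblet cell genes from -0.012 to 0.25, Muc2 from -0.044 to 0.081, Fcgbp from -0.064 to 0.12, Agr2 from -0.25 to 0.26 and Spdef from -0.44 to 0.0037. For WUSTL0717 against vehicle in the ileum, these ranges were Clca1 from -0.0068 to 0.075, Agr2 from -0.14 to 0.082 and Spdef from -0.074 to 0.0060. For WUSTL0717 against sham in the ileum, these ranges were goblet cell genes called from 0 to 0. In sham, ileum against duodenum ranged over goblet cell genes called from 1 to 3, the median of the goblet cell genes from 0.29 to 0.63 and Agr2 from -0.11 to 0.030. With SBR and WUSTL0717, ileum against duodenum ranged over goblet cell genes called from 4 to 7 and the median of the goblet cell genes from 0.80 to 1.13. For the difference between regions in the effect of SBR, these ranges were Zg16 from -0.12 to 0.23. The median of the goblet cell genes for the effect of WUSTL0717 between regions ran from -0.12 to 0.12.

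Over all genes, counts of calls moved widely with the settings. After SBR with vehicle the count was 0 in the duodenum (0 to 2497 over the settings, 589 without SBR vehicle 1) and 55 in the ileum (5 to 683). WUSTL0717 against vehicle gave 39 (0 to 596) and 11 (1 to 491), and WUSTL0717 against sham 121 (0 to 1885) and 343 (31 to 1301). Ileum against duodenum gave 2331 in sham (1069 to 5549), 9068 with SBR and vehicle (4826 to 10770) and 8895 with WUSTL0717 (1468 to 9811). The differences between regions gave 12 (0 to 1989) and 4 (0 to 479). Leaving out 1 library gave 7 to 28 and 22 to 84 in the duodenum for WUSTL0717 against vehicle and sham, 3 to 38, 2 to 12 and 65 to 241 for the 3 ileal comparisons in the order above, 1257 to 1836 for the regions in sham and 1 to 229 for the effect of SBR between regions. The small groups of 3 or 4 libraries, unknown read depth, ComBat and the share of stomach or pancreas in the duodenum limit these results. The compared groups alone and the unmoderated test were not run for the differences between regions in response, and the covariate was run within the duodenum only. Leaving out the libraries of high Tff1 removes the sham duodenum.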

Other observations

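Tff3 was the goblet cell gene with the widest spread in the liver, where it is not a marker of goblet cells. It was 8.09 to 10.22 in 5 sham livers, 6.73 to 8.99 in 8 livers after SBR with vehicle and 6.59 to 7.55 in 5 livers after SBR with WUSTL0717. The means were 8.86 ± 0.87, 7.52 ± 0.83 and 7.12 ± 0.42 (SD), and no test was made of them.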
